A study of Mus musculus with 14 samples.

Results

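To ask how Toll-like receptor genes of the colon respond to colitis with and without the glucocorticoid receptor (GR) in the intestinal epithelium, the probes of 10 genes were followed through 14 microarrays. These genes were Tlr1, Tlr2, Tlr3, Tlr4, Tlr5, Tlr7, Tlr9, the co-receptor genes Cd14 and Ly96, and Myd88, and a probe was taken when its accession mapped to one of them. Of the 41174 probes on the array, 10 did so and covered 9 of the 10 genes, with 2 probes for Tlr3. No probe accession matched Tlr5, which was not analysed here. Flox mice carry floxed GR alleles (GR fl/fl), and GR iKO mice carry the same alleles with Villin-cre, which removes GR from epithelial cells of the intestine. Controls drank regular water and the other mice drank 2.5% dextran sulfate sodium (DSS), a polymer that injures the colonic epithelium, for 7 days. All were female C57BL/6 mice aged 4 to 6 months on chow, and the groups were Flox control (n = 4), Flox DSS (n = 3), GR iKO control (n = 4) and GR iKO DSS (n = 3). The RNA came from colon tissue, in which immune, stromal and muscle cells keep GR in both genotypes. A change in such RNA can reflect a different number of cells of a type or a different amount of RNA per cell, which cannot be told apart here.

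The 75th percentile of processed intensity ranged from 262 to 1003 over the arrays, and 62.6% to 71.3% of probes were well above background. The spread between replicates was larger with DSS, where the median SD of a probe was 0.26 in Flox and 0.34 in GR iKO on the log2 scale, against 0.18 and 0.17 without DSS. The tests allowed a variance for DSS arrays apart from that for control arrays. Nr3c1, which encodes GR, was at 57.3% of the Flox level in GR iKO colons without DSS (exact permutation test p = 0.0286, two-sided, the smallest possible with 4 against 4 arrays) and at 56.1% with DSS (exact p = 0.1, the smallest possible with 3 against 3). The 3 other Nr3c1 probes were at 47.6%, 55.7% and 54.2% without DSS and at 75.7%, 55.2% and 57.1% with it. All 10 colonic epithelium markers were above background in every group, which fits the label of the tissue. Replicates are numbered in the labels, and the p-values measure the spread between these samples.

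Toll-like receptors sense microbial molecules. Those at the cell surface bind bacterial lipids and proteins, whereas Tlr3, Tlr7 and Tlr9 bind nucleic acids in endosomes. Lipopolysaccharide is handed by the products of Lbp and Cd14 to the complex of Tlr4 and Ly96, and lipopeptides bind Tlr2 paired with Tlr1 or Tlr6. Nearly all of these receptors signal through the adaptor Myd88 to kinases, NF-kB and interferon regulatory factors, with Tlr3 as the exception. In the colon these receptors are found on epithelial cells and on the phagocytes and lymphocytes of the mucosa, where bacteria are close at hand.

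Promoter windows from RefSeq (build GRCm38.p6) were searched for 6 of the 10 genes (Tlr1, with 2 start sites, Tlr2, Tlr3, Tlr5, Tlr9 and Myd88). No window of Tlr4, Tlr7, Cd14 or Ly96 was searched. The 250 bases before the start of Tlr2, Myd88 and Tlr1 are shown because these are the members with a window whose level changed with DSS in both genotypes. Capitals mark letters that matched any of 5 motifs sought on both strands: the NF-kB motif, the AP-1 motif TGANTCA, the GR half-site AGAACA, the PU.1 core GAGGAA and the interferon response motif, a pair of GAAA with 2 bases between them. Tlr2 lies at chr3:83841609-83841858, Myd88 at chr9:119340019-119340268 and Tlr1, at the first of its start sites, at chr5:64933559-64933808, all on the minus strand and written 5′ to 3′ along the gene.
Tlr2: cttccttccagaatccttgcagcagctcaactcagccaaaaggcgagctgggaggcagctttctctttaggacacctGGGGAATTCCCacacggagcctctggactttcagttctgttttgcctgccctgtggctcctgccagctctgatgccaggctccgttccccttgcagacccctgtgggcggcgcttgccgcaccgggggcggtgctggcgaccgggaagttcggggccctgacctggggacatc
Myd88: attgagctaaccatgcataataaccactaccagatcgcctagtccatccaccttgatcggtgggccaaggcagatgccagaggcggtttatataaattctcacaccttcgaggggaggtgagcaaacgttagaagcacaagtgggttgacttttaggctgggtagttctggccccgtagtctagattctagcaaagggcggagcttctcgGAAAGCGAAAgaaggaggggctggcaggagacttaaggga
Tlr1: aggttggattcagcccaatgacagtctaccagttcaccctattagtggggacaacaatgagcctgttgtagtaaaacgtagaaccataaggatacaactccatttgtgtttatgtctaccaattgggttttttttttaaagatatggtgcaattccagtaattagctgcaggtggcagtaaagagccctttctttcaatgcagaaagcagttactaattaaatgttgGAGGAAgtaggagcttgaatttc
The window of Tlr2 held overlapping matches to the NF-kB motif at positions -173 to -163 from the start, and Tlr3 also held a match. Such a match was present in 7.25% of the 32851 promoter windows of this length. The interferon response motif of Myd88, at positions -40 to -31, was present in 2.98% of windows. Tlr1 held the PU.1 core at positions -23 to -18 from the first of its start sites, as did Tlr9 further upstream, and 23.3% of all windows did so. Tlr9 also held the AP-1 motif, found in 6.75% of windows. The GR half-site, found in 16.1% of all windows, was in none of the 7 windows searched, which do not include Cd14. The second window of Tlr1 and that of Tlr5 held none of the motifs. These matches describe letters and not binding.

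The first comparison asked how the receptors respond to colitis in mice with epithelial GR. In Flox mice DSS raised Tlr2, Tlr7 and Myd88 by about 2-fold each and lowered Tlr1 by 3.19-fold, while Cd14 differed by 0.13 and Ly96 by -0.03 on the log2 scale. Thus 4 of 9 genes were called, at an adjusted p under 0.05 over all tested probes, against 47.2% of the 29523 tested probes. Separately, 3 were higher, a direction called for 21.8% of probes, and 1 was lower, a direction called for 25.4%. The groups did not overlap for these 4 genes, nor for 57.4% of tested probes. The median log2 difference of the 9 genes was 0.17, and that of all probes was -0.09.

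The same question was asked of mice without epithelial GR. There, DSS raised Cd14, Tlr2, Tlr4, Tlr7 and Myd88 in GR iKO colons, most of all Cd14 by 3.55-fold, and lowered Tlr1 by 1.89-fold. These were 6 of 9 genes, against 38.9% of tested probes called. The 5 that were higher compare with 19.1% of probes called higher, and the 1 that was lower with 19.8% called lower. For all 6 the groups did not overlap, which held for 46.3% of tested probes. Here the median log2 difference was 0.91 over the 9 genes and -0.02 over all probes. Tlr3, Tlr9 and Ly96 passed the test in neither genotype. All levels are log2 processed intensity less the 75th percentile of that array. When arrays were instead scaled to the added spike-in transcripts, the median of all probes itself moved by -2.41 in Flox and -0.95 in GR iKO with DSS. Every member then fell in Flox, and Tlr4 stood at -0.01 in GR iKO, and since this scaling moves all probes of an array by 1 constant, the place of each gene relative to the median is fixed by construction. Relative to it, Tlr2 stood at 1.08, Myd88 at 1.19 and Tlr1 at -1.58.

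**Figure D1:**
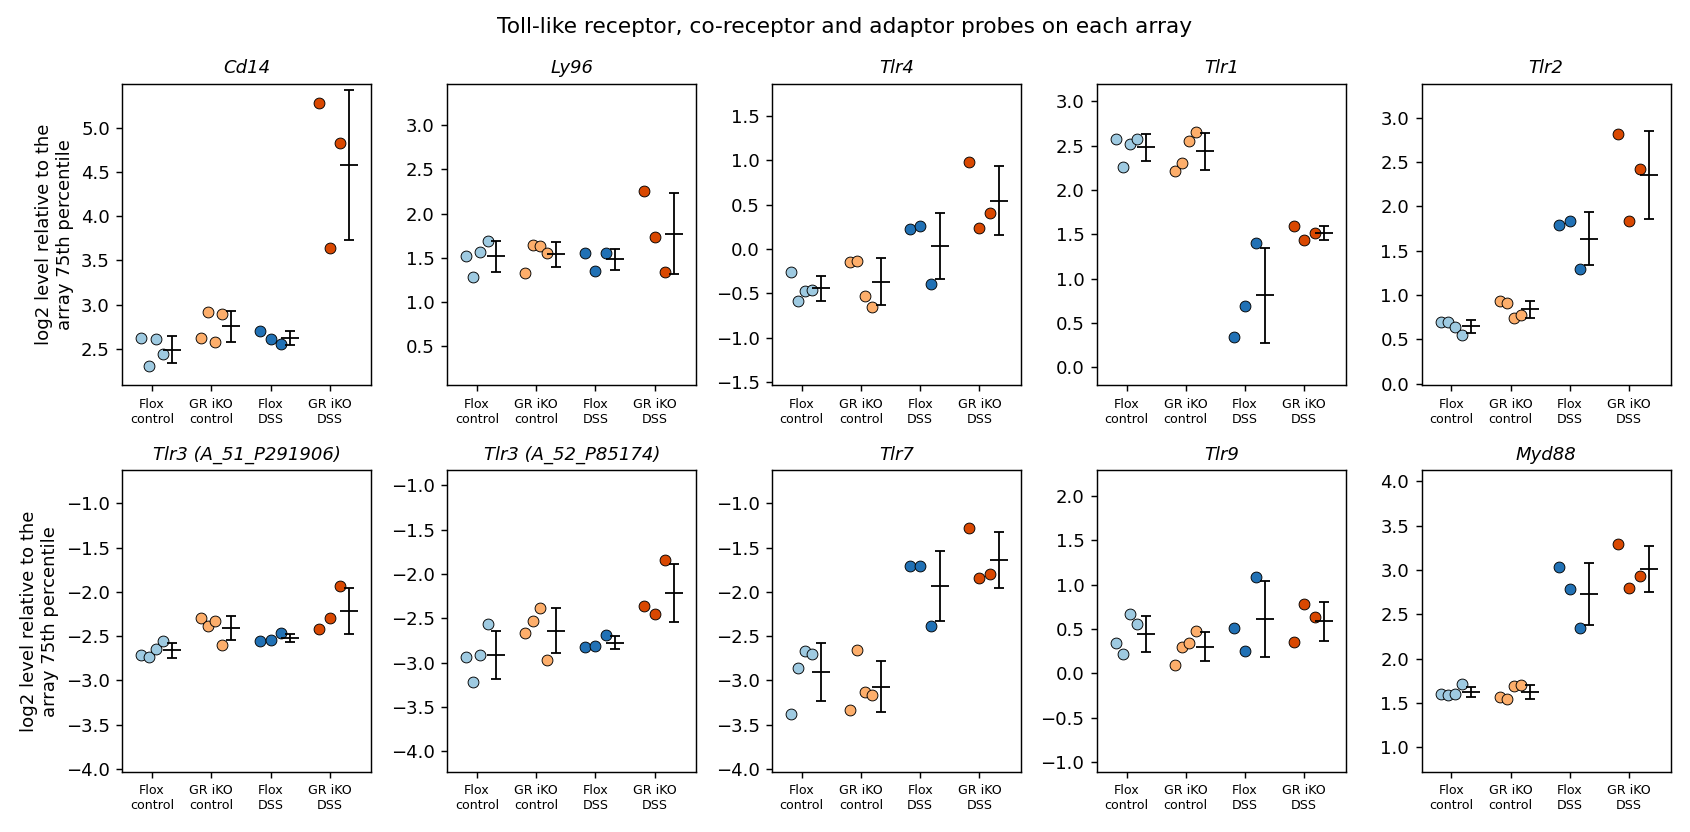
Log2 level of each probe over its array’s upper quartile, the 75th percentile (vertical axis, 3.4 log2 units tall in every panel) in the 4 groups. Each point is 1 array, and the line with its bar is the mean with the SD. Cd14 stood apart in the 3 GR iKO DSS arrays, at 3.64 to 5.28, whereas the 11 other arrays lay between 2.31 and 2.92.

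Cd14, the surface and soluble carrier of lipopolysaccharide, had log2 levels of 2.62, 2.31, 2.61 and 2.44 in Flox control arrays and of 2.71, 2.61 and 2.56 in Flox DSS arrays. In GR iKO controls it was at 2.63, 2.92, 2.58 and 2.90, and in GR iKO DSS arrays at 5.28, 3.64 and 4.82. Every GR iKO DSS array was thus above all other arrays, and the remaining groups overlapped. The DSS difference in GR iKO was 1.83 ± 0.27 (SE) on the log2 scale (adjusted p = 0.000334), and within the 3 slides that held both groups it ranged from 1.06 to 2.66. Flox mice gave 0.13 ± 0.27 (adjusted p = 0.715, 95% interval -0.46 to 0.72).

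Between genotypes on DSS, Cd14 was 3.88-fold higher in GR iKO, a log2 difference of 1.96 ± 0.35 with a 95% interval of 1.2 to 2.71. This difference did not pass the test over all probes (adjusted p = 0.071, unadjusted p = 0.000104). It passed in 6 of 26 alternatives, and over the 26 the adjusted p reached 0.388 (without Flox DSS replicate 2) and the difference went down to 1.61 (without GR iKO DSS replicate 1). It passed with 1 spread for all arrays (adjusted p = 0.00683), with a quality weight for each array (0.00518), with eBayes trend and robust (0.0443) and with normexp background correction and quantile normalization together (0.0249), and not with quantile normalization alone (0.0602). It also passed without GR iKO DSS replicate 3, the lowest of its group (2.43, adjusted p = 0.00874), and without Flox DSS replicate 4, the dimmest array (1.92, adjusted p = 0.038). Within the 2 slides that held both groups it was 0.93 and 2.26. The interaction, meaning the signed DSS difference in GR iKO minus that in Flox, was 1.69 ± 0.38 (adjusted p = 0.137).

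Tlr4, the receptor of lipopolysaccharide, had log2 levels of -0.26, -0.59, -0.47 and -0.46 in Flox controls and of 0.23, 0.26 and -0.39 in Flox DSS arrays. GR iKO controls were at -0.15, -0.14, -0.53 and -0.65, and GR iKO DSS arrays at 0.98, 0.24 and 0.41. The GR iKO DSS arrays lay above both control groups, whereas the Flox groups overlapped through Flox DSS replicate 4. The DSS difference was 0.91 ± 0.24 in GR iKO (adjusted p = 0.00943) and 0.48 ± 0.24 in Flox (adjusted p = 0.115). Single arrays decided both sides of the threshold, since the call in GR iKO was lost without GR iKO DSS replicate 1 (0.69, adjusted p = 0.0571) and a call in Flox appeared without Flox DSS replicate 4 (0.69, adjusted p = 0.0489).

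Ly96, which encodes the lipid-binding partner of Tlr4, had log2 levels of 1.52, 1.28, 1.57 and 1.69 in Flox controls and of 1.55, 1.35 and 1.56 in Flox DSS arrays. In GR iKO the controls were at 1.33, 1.64, 1.63 and 1.55 and the DSS arrays at 2.25, 1.73 and 1.34. All 4 groups overlapped. The DSS difference was -0.03 ± 0.20 in Flox (95% interval -0.46 to 0.40) and 0.24 ± 0.20 in GR iKO (-0.19 to 0.67), so a log2 difference of 1 lay outside both intervals.

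Tlr2, the receptor of bacterial lipopeptides, had log2 levels of 0.70, 0.70, 0.64 and 0.55 in Flox controls and of 1.79, 1.83 and 1.29 in Flox DSS arrays. GR iKO controls were at 0.93, 0.91, 0.74 and 0.77, and GR iKO DSS arrays at 2.82, 1.83 and 2.42. The DSS groups did not overlap with the controls in either genotype. DSS raised Tlr2 by 0.99 ± 0.19 in Flox (adjusted p = 0.00107) and by 1.52 ± 0.19 in GR iKO (adjusted p = 9.57e-05). Between genotypes on DSS the difference was 0.72 ± 0.24 (adjusted p = 0.156), and in 3 of 26 alternatives it passed the test, with 1 shared spread (0.0461), with a quality weight for each array (0.0309) and without GR iKO DSS replicate 3 (0.041). The GR iKO controls also lay just above the Flox controls with no overlap, by 0.19 ± 0.11 (adjusted p = 1), a separation seen for 2.26% of tested probes. This probe was printed 10 times on each array, and the SD of its 10 log2 spots was between 0.05 and 0.12 on every array. The SD between arrays was 0.30 in Flox DSS and 0.50 in GR iKO DSS.

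Tlr1, which pairs with Tlr2 to bind triacylated lipopeptides, had log2 levels of 2.57, 2.26, 2.52 and 2.58 in Flox controls and of 0.34, 0.69 and 1.40 in Flox DSS arrays. GR iKO controls were at 2.22, 2.31, 2.55 and 2.66, and GR iKO DSS arrays at 1.59, 1.44 and 1.51. All DSS arrays lay below all controls, and the GR iKO DSS arrays lay above the Flox DSS arrays. In Flox it fell by 1.67 ± 0.22 on the log2 scale (adjusted p = 9.33e-05), and GR iKO mice gave -0.92 ± 0.22 (adjusted p = 0.00612). The difference between genotypes on DSS was 0.70 ± 0.28 (adjusted p = 0.224) and the interaction 0.75 ± 0.31 (adjusted p = 0.29). Only with a quality weight for each array, of the 26 alternatives, did the former pass the test, and of 25 alternatives the latter passed there and with spike-in scaling. With that weight they were 0.98 (adjusted p = 0.0165) and 1.06 (adjusted p = 0.0269). Tlr1 thus moved against Tlr2, its partner, in both genotypes.

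Tlr7, the receptor of uridine-rich RNA, was dim, with intensities of 49.8 to 295 over a local background of 20.5 to 30. Its log2 levels were -3.38, -2.86, -2.67 and -2.70 in Flox controls and -1.71, -1.71 and -2.39 in Flox DSS arrays. In GR iKO they were -3.33, -2.66, -3.13 and -3.16 in controls and -1.28, -1.84 and -1.80 with DSS. No DSS array of either genotype overlapped with its controls. DSS raised Tlr7 by 0.97 ± 0.30 in Flox (adjusted p = 0.0186) and by 1.43 ± 0.30 in GR iKO (adjusted p = 0.00273). The call in Flox was lost without Flox DSS replicate 1 (0.85, adjusted p = 0.119) or replicate 2 (0.85, adjusted p = 0.112).

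Tlr9, the receptor of unmethylated CpG DNA, had log2 levels of 0.34, 0.22, 0.67 and 0.56 in Flox controls and of 0.51, 0.25 and 1.09 in Flox DSS arrays. GR iKO controls were at 0.09, 0.30, 0.34 and 0.48, and GR iKO DSS arrays at 0.35, 0.78 and 0.64. All groups overlapped. The DSS difference was 0.17 ± 0.21 in Flox (95% interval -0.30 to 0.64) and 0.29 ± 0.21 in GR iKO (-0.18 to 0.76).

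Tlr3, the receptor of RNA duplexes, was measured by 2 dim probes with intensities of 40.6 to 196. The probe that stood for the gene had log2 levels of -2.71, -2.73, -2.65 and -2.55 in Flox controls and of -2.56, -2.54 and -2.47 in Flox DSS arrays. GR iKO controls were at -2.30, -2.39, -2.33 and -2.60, and GR iKO DSS arrays at -2.42, -2.30 and -1.93. The GR iKO arrays tended to lie above the Flox arrays, by 0.26 ± 0.09 without DSS (adjusted p = 1, unadjusted p = 0.0114) and by 0.31 ± 0.18 on DSS (adjusted p = 0.412). The other probe, with log2 levels of -3.22 to -2.56 in Flox controls and of -2.97 to -2.38 in GR iKO controls, gave differences of 0.27 ± 0.15 and 0.56 ± 0.31. Neither probe passed the test in any comparison.

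Myd88, the shared adaptor, had log2 levels of 1.60, 1.59, 1.60 and 1.71 in Flox controls and of 3.04, 2.79 and 2.35 in Flox DSS arrays. GR iKO controls were at 1.57, 1.55, 1.69 and 1.7, and GR iKO DSS arrays at 3.30, 2.80 and 2.93. The controls of both genotypes differed by 0.00 ± 0.09, and no DSS array overlapped with them. DSS raised Myd88 by 1.10 ± 0.15 in Flox (adjusted p = 0.000134) and by 1.39 ± 0.15 in GR iKO (adjusted p = 4.68e-05). The genotypes overlapped on DSS, with a difference of 0.29 ± 0.20 (adjusted p = 0.49).

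**Figure D2:**
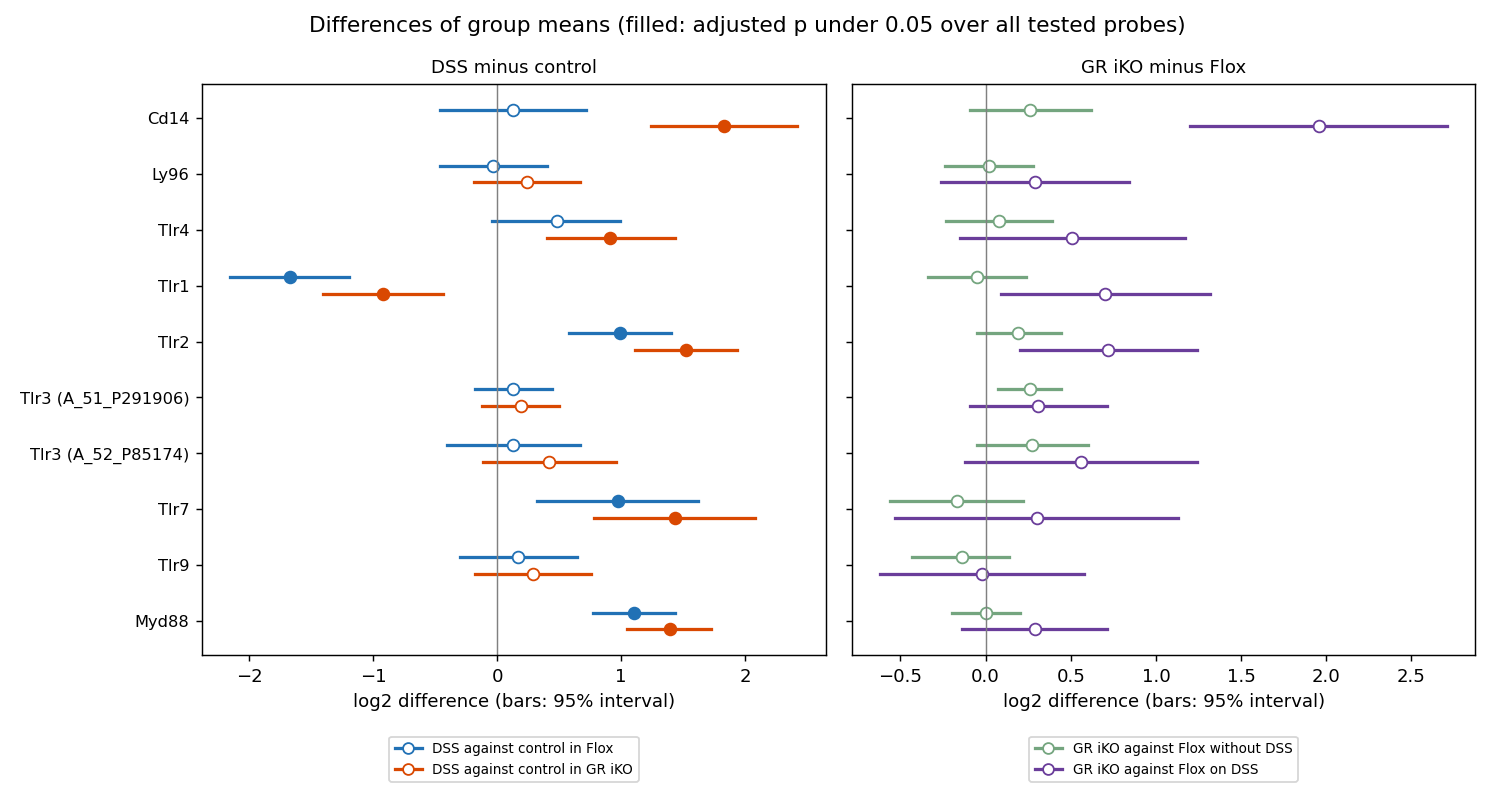
Log2 differences of group means for each probe, with 95% intervals, for DSS minus control in both genotypes (left) and for GR iKO minus Flox without and with DSS (right). Filled points have an adjusted p under 0.05 over all tested probes. Tlr1 is the only gene to the left of 0 with DSS in both genotypes, Cd14 differs most between the genotypes on DSS, and no point on the right is filled.

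The comparison of genotypes asked whether loss of epithelial GR alters these genes. Without DSS, 0 of 9 genes were called by limma, against 0.0237% of tested probes. An unadjusted p under 0.05 was found for 1 gene (Tlr3) and for 3.32% of probes. The largest member differences were 0.27 or less. On DSS, 0 of 9 were called against 0.0203% of probes. Here 3 genes (Cd14, Tlr1 and Tlr2) had an unadjusted p under 0.05, as did 17.8% of probes. The groups did not overlap for 3 of 9 genes (Cd14, Tlr1 and Tlr3), against 22.8% of tested probes. In the interaction 0 of 9 genes and 0% of probes were called, with 2 genes (Cd14 and Tlr1) and 4389 probes (14.9%) at an unadjusted p under 0.05. Its sign was positive for 9 of 9 genes and for 52.5% of all probes, and its median was 0.43 over the genes against 0.03 over all probes. For Tlr1 a positive sign means a smaller fall in GR iKO (-0.92) than in Flox (-1.67). The genes were measured on the same arrays, so their signs are not independent, and those of Tlr3 and Tlr9 turned when single arrays were left out. On DSS the median difference was 0.31 over the genes and 0.03 over all probes. With 1 spread for all arrays, Cd14 and Tlr2 were called between genotypes on DSS, where that fit called 13.2% of probes.

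In the order of the 4 groups, GR iKO DSS was highest for 7 of the 9 genes and Flox DSS for Tlr9, while Flox control was highest for Tlr1. Of these 7, only Cd14 had a step from GR iKO DSS to the next group that passed the test. The share of all probes highest in GR iKO DSS was not counted. For Cd14 only the step from GR iKO DSS to the next group passed the test, and Flox DSS, GR iKO control and Flox control did not differ beyond their spread. For Tlr1 the controls differed by 0.05 and the step from GR iKO control to GR iKO DSS passed the test, but that from GR iKO DSS to Flox DSS did not. For Tlr2 the step from Flox DSS to GR iKO control, 0.80 on the log2 scale, passed it (adjusted p = 0.00399). No neighbours differed beyond their spread for Ly96, Tlr3, Tlr4 and Tlr9.

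Over the 14 arrays, the members that rose with DSS correlated with each other, which their shared change between control and DSS arrays sets in advance. Log2 levels of Tlr2 correlated with those of Myd88 at a Pearson r of 0.95, of Tlr4 at 0.94 and of Tlr7 at 0.90. Cd14 followed Tlr2 at 0.84 and Myd88 at 0.69, and Tlr1 ran against Myd88 at -0.84. These values describe arrays that share 4 groups and 4 slides, and they do not show whether genes vary together within a group. Of 15455 genes compared, those most like each member included Il1rn (0.970) for Cd14, Cotl1 (0.838) and Olfr1225 (0.866) for Ly96, and Sprr2h (0.954) and H2-M3 (0.952) for Tlr4. Tlr2 was nearest to Alox5ap (0.986) and Pgs1 (0.985), Tlr1 to Mapkapk3 (0.991) and Klf5 (0.989), and Tlr7 to Ly86 (0.984) and Cd300c2 (0.983). Myd88 was nearest to Rnd1 and Gbp5 (both 0.992), Tlr9 to Krtap5-4 (0.941) and Calcoco2 (0.929), and Tlr3 to Chfr (0.930) and Jarid2 (0.840).

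Further genes of the pathway, taken from a list of 45 of which 40 were tested, were counted in the same way. The list was chosen with earlier results of these data known, so its counts are no independent support. They include Sarm1, which was not well above background in any control array. In Flox, 11 rose and 6 fell with DSS, so that 17 of 40 were called against 47.2% of all probes. In GR iKO 19 rose and 3 fell, so that 22 of 40 were called against 38.9% of all probes. The median log2 difference was 0.16 in Flox and 0.50 in GR iKO, against -0.09 and -0.02 for all probes. Between genotypes limma called 0 of 40, with 1 at an unadjusted p under 0.05 without DSS and 12 on DSS, and in the interaction it called 0, with 13 at an unadjusted p under 0.05. Of all probes, 3.32% were under that limit without DSS, 17.8% on DSS and 14.9% in the interaction. Tlr11, Tlr12, Tlr13, Cd180 and Ticam2 were not tested. These directions too are relative to the array, and with spike-in scaling most of the genes named as rising in Flox turned negative, Lbp and Sarm1 being the exceptions.

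Of the ligand transfer and co-receptor genes tested, 4 of 4 rose in Flox and 3 of 4 in GR iKO, where 21.8% and 19.1% of all probes were called higher. Lbp, which delivers lipopolysaccharide to Cd14, rose by 3.61 ± 0.30 in Flox (adjusted p = 5.68e-06) and by 3.44 ± 0.30 in GR iKO (adjusted p = 1.17e-05). Its interaction was -0.17 ± 0.43 (95% interval -1.1 to 0.77). Aoah, which deacylates lipopolysaccharide, rose by 1.39 and 2.11. Ly86, the partner of Cd180, rose by 1.28 and 1.7. Cd36, a scavenger receptor that assists Tlr2 and Tlr6, rose by 1.12 in Flox (adjusted p = 0.0317). With epithelial GR lost, its difference was -0.34 (adjusted p = 0.523). The call in Flox was lost without Flox control replicate 2 (1.12, adjusted p = 0.0511) or 4 (1.03, 0.0554) and without Flox DSS replicate 1 (1.34, 0.0601) or 2 (0.77, 0.226). The interaction of Cd36 was -1.46 ± 0.55 (adjusted p = 0.251).

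Of 2 other receptors tested, Tlr6, the alternative partner of Tlr2, rose by 1.17 ± 0.18 in GR iKO (adjusted p = 0.000417) and differed by 0.23 ± 0.18 in Flox (adjusted p = 0.322). Its interaction was 0.94 ± 0.26 (adjusted p = 0.161). Among adaptors, 2 of 4 were called in Flox and 3 of 4 in GR iKO, all higher, against the same 21.8% and 19.1% of probes. Pik3ap1, which links Toll-like receptors to phosphoinositide 3-kinase, rose by 0.96 and 1.83, the call in Flox being lost without Flox DSS replicate 2 (0.84, adjusted p = 0.081). Sarm1, an adaptor with an inhibitory role, was not well above background in any control array and passed the filter through DSS arrays alone. Its calls are therefore no independent support for a rise. With control arrays set no lower than the lowest level well above background, it was 3.34-fold higher with DSS in Flox (limma adjusted p = 0.00135 on measured values). Only 2 of 3 Flox DSS arrays measured it, so this value is not a strict bound. In GR iKO, where all 3 did, it was at least 2.13-fold higher (adjusted p = 0.00143 on measured values). Both values hold for the processed signal alone. With normexp background correction and quantile normalization the log2 difference in GR iKO was 0.3 and the call was lost (adjusted p = 0.0534). Of 5 receptor trafficking genes, 1 rose and 1 fell in Flox and 1 rose in GR iKO, against 47.2% and 38.9% of probes called in either direction, the latter being Unc93b1, the chaperone of endosomal receptors (0.70 ± 0.18, adjusted p = 0.00875).

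Of 13 kinases and ubiquitin ligases, 1 rose and 3 fell in Flox, and 4 rose and 2 fell in GR iKO. Over all probes 21.8% were called higher and 25.4% lower in Flox, and 19.1% and 19.8% in GR iKO, and the regulatory factors and inhibitors that follow are read against these shares as well. Ikbke, a kinase of interferon regulatory factors, fell by 1.23 in Flox and by 0.65 in GR iKO (adjusted p = 4.11e-05 and 0.00402). Of 4 interferon regulatory factors, 1 rose and 1 fell in Flox, and 3 rose and 1 fell in GR iKO. Irf5, which acts downstream of Myd88, rose by 0.98 and 1.35, and its call in Flox was lost without Flox DSS replicate 1 (0.89, adjusted p = 0.0769) or replicate 2 (0.81, adjusted p = 0.0899). Irf7 rose by 1.09 in GR iKO (adjusted p = 0.0173) and differed by 0.53 in Flox (adjusted p = 0.194). The call in GR iKO was lost without GR iKO DSS replicate 3 (0.74, adjusted p = 0.117) or replicate 4 (1.04, adjusted p = 0.0703), and a call in Flox appeared with quality weights (0.92, adjusted p = 0.00141).

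Of 8 inhibitors, 2 rose and 1 fell in Flox, and 4 rose in GR iKO, with 0 called by limma in the interaction. Irak3, a kinase-dead brake on Myd88 signalling, rose by 0.69 ± 0.23 in Flox (adjusted p = 0.0251) and by 1.33 ± 0.23 in GR iKO (adjusted p = 0.000803). The call in Flox was lost with normexp and quantile normalization (0.44, adjusted p = 0.0682), quantile normalization alone (0.61, 0.0504), the deposited table (0.61, 0.0501), and without Flox DSS replicate 1 (0.71, 0.0908) or replicate 2 (0.57, 0.148). Tnfaip3, the deubiquitinase A20 of NF-kB feedback, rose by 1.71 ± 0.25 in GR iKO (adjusted p = 0.000271), while Flox mice gave a difference of 0.20 ± 0.25 (adjusted p = 0.542). Between genotypes on DSS, Tnfaip3 differed by 1.48 ± 0.31 (adjusted p = 0.0768). Lyn, a Src family kinase, rose by 1.31 in GR iKO (adjusted p = 0.00169) in a fit without GR iKO DSS replicate 4, where its spot was missing, and differed by 0.26 in Flox (adjusted p = 0.331, or 0.0419 with quality weights). Tollip, which restrains Irak kinases, rose by 0.49 and 0.52.

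**Figure D3:**
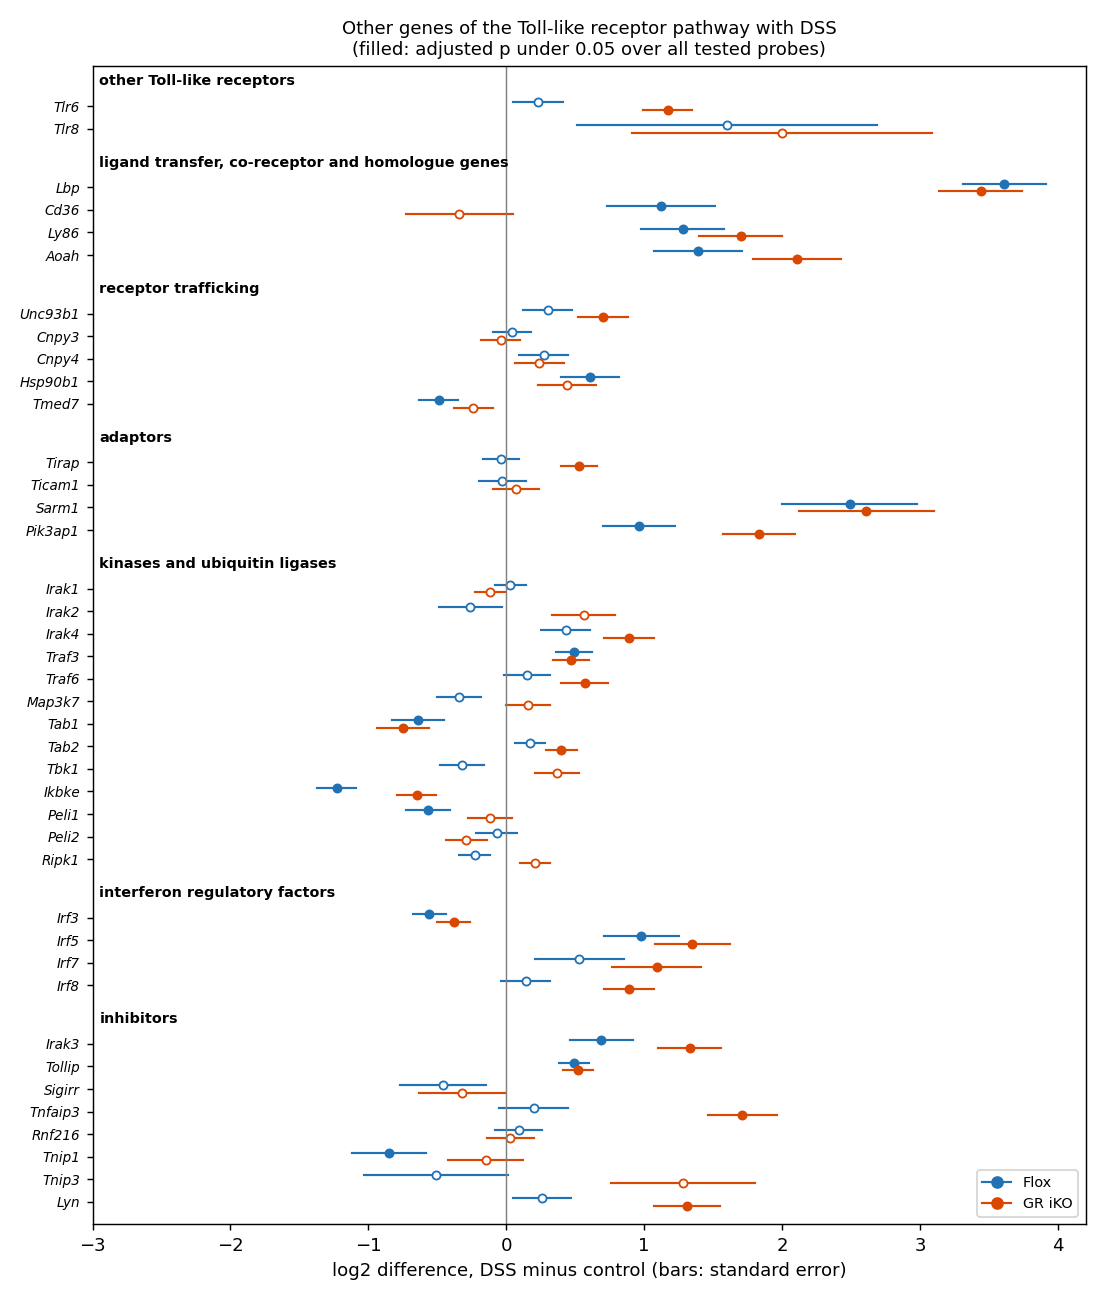
Log2 difference with DSS (horizontal axis, bars are standard errors) of 40 other pathway genes in Flox and GR iKO, grouped by role. Filled points have an adjusted p under 0.05 over all tested probes, 17 in Flox and 22 in GR iKO. Lbp lies farthest to the right in both genotypes, and the values drawn for Sarm1 are fitted means whose control groups were not above background.

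Markers of the cells that carry these receptors moved with DSS as well. Over all tested probes, 21.8% were called higher and 25.4% lower in Flox, and 19.1% and 19.8% in GR iKO. Of 10 macrophage and monocyte markers, 6 rose in Flox and 8 in GR iKO, and their mean log2 level went from -0.31 to 0.22 in Flox controls to 0.93 to 1.78 with DSS, and from -0.36 to 0.36 to 1.28 to 2.02 in GR iKO. Of 8 neutrophil markers tested, 6 rose in Flox and 8 in GR iKO. Their mean level was between -6.46 and -5.02 in Flox controls and between -5.82 and -5.20 in GR iKO controls, where Ngp and Cxcr2 in Flox and Cxcr2 and Ltf in GR iKO were not above background on any array. With DSS it was between -1.73 and -0.83 in Flox and between 0.27 and 1.99 in GR iKO. In GR iKO DSS replicates 1, 3 and 4 the neutrophil list was at 1.99, 0.27 and 1.23. Cd14 was at 5.28, 3.64 and 4.82 there, and Tlr2 at 2.82, 1.83 and 2.42. The median log2 difference of the neutrophil markers with DSS was 4.36 in Flox and 7.03 in GR iKO, and that of Cd14 was 0.13 and 1.83. Cxcr2, above background in no control array, passed the filter through DSS arrays alone, so its calls are no independent support for a rise. With such markers dim in controls, these neutrophil medians are not measured sizes of change. Between genotypes on DSS the median difference of the 8 neutrophil markers was 2.28, with 0 called by limma and 5 at an unadjusted p under 0.05. Of the 10 macrophage and monocyte markers 0 were called and 0 had an unadjusted p under 0.05. In this comparison 17.8% of all probes had an unadjusted p under 0.05. The part of these cells in the differences of the receptor genes was not tested.

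B cell markers fell in Flox, with 6 of 7 tested called. In GR iKO limma called 0 of 7, with 0 at an unadjusted p under 0.05, against 47.3% of all probes. Their mean log2 level was -5.46, -4.78 and -2.11 in the 3 Flox DSS arrays and -1.28, -1.01 and -5.06 in the 3 GR iKO DSS arrays, so that Flox DSS replicate 4 and GR iKO DSS replicate 4 each stood apart from the others of their group. In the same order of arrays, Tlr1 was at 0.34, 0.69 and 1.40 in Flox DSS and at 1.59, 1.44 and 1.51 in GR iKO DSS. Whether Tlr1 and this list are related was not tested. All 6 fibroblast markers rose in both genotypes. Of 10 colonic epithelium markers, 1 rose and 2 fell in Flox, and 1 rose and 1 fell in GR iKO. Endothelial markers rose for 3 of 7 in Flox and 1 of 7 in GR iKO, and of 4 skeletal muscle markers 2 rose and 1 fell in Flox and none was called in GR iKO. These counts are read against 21.8% of all probes called higher and 25.4% lower in Flox, and 19.1% and 19.8% in GR iKO. The counts of epithelial markers, and that of endothelial markers in GR iKO, were below these shares. The part of any of these cell types in the differences was likewise not tested.

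**Figure D4:**
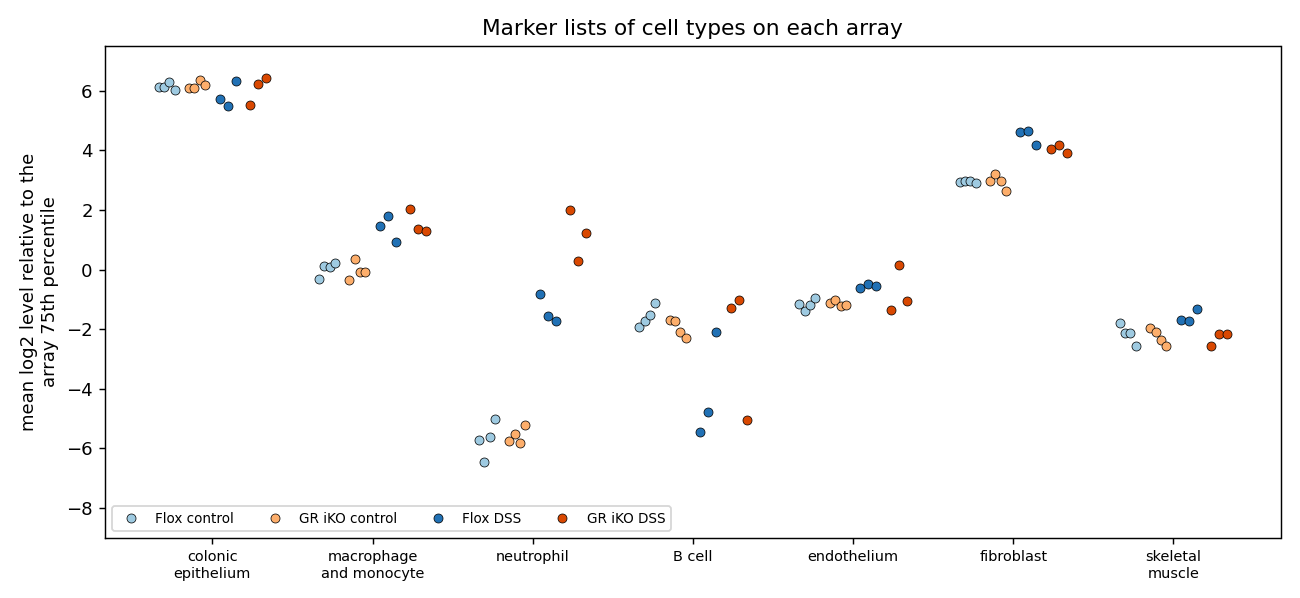
Mean log2 level of 7 marker lists over the 75th percentile per array (vertical axis), with 1 point per array and colours for the 4 groups. Neutrophil markers were highest in the 3 GR iKO DSS arrays, at 0.27 to 1.99, and B cell markers split both DSS groups.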

How the data were processed

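Colon RNA of 14 mice (500 ng per array, Cy3) was hybridised by the authors to Agilent whole mouse genome 1-colour arrays, as the labels state. The deposited scanner files hold linear intensity values from Agilent Feature Extraction 12.0.0.7, whose 1-colour protocol subtracts background, detrends and raises low values to a positive surrogate, which shrinks differences of dim probes, with no scaling between arrays. A further deposited table gives log2 values of these arrays, for which the submitters' processing notes name Partek 6.6. All of its columns had a median of 6.05 and it correlated with log2 processed intensity at 0.999 or more, so its scale and direction are known and its normalization is not given in the sources used here. It served as an alternative.

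Here, 1639 control spots and outlier spots were left out, spots of a probe were averaged, and log2 processed intensity minus the 75th percentile of the array was used. Probes well above background on at least 3 of 14 arrays were tested (29523). No probe was saturated, and all 10 member probes were above background on all 14 arrays. Symbols were assigned by RefSeq accession (28223 of 29245 probes matched), and the tested probe with the highest mean level stood for a gene. The array grid is on build mm9, so probes are given no coordinates, and those of the promoter windows are on GRCm38.p6. limma 3.58.1 (R 4.3.3) fitted 4 group means over all arrays with arrayWeights giving 1 variance to control and 1 to DSS arrays (weight ratio 3.39). The 5 comparisons were two-sided, with Benjamini-Hochberg adjustment over all probes. A call needed an adjusted p (limma) under 0.05. An exact permutation test was used for Nr3c1. The code was tested on simulated data. The number of arrays limits the precision.

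Members and gene lists were chosen with earlier results of these data known. The text names all members, Nr3c1, pathway genes called with an absolute log2 change of at least 1 with DSS in either genotype (13 genes), and the 2 genes most correlated with each member, of which 1 is not reported here. Unc93b1 and Tollip were added after their values were seen. The arrays lay on 4 slides, each with its own scan time, and the position on a slide went with the group, so position and group cannot be told apart. A total of 27 alternatives were run. The normexp alternative used median in place of mean spot signals, and offset 50.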

Additional observations from a re-analysis of the deposited data

Results flagged for a closer look

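Among 48 sets of 4 control arrays examined for the named probes, 4 held an array far from the other 3 by the gap between it and its neighbour as a share of the range, where chance gives about 1 in 20. Myd88 was at 1.71 in Flox control replicate 4 and at 1.59 to 1.60 in the others (share 0.904), and Lbp was at -2.58 there and at -2.35 to -2.32 in the others (0.877). Ly86 was at 1.55 in GR iKO control replicate 2 and at 1.03 to 1.07 in the others (0.926). Cd36 was at -1.50 in GR iKO control replicate 4 and at -0.59 to -0.50 in the others (0.911). Groups of 3 were not examined in this way.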

How the results depend on the processing

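Counts of members called with DSS kept within 1.5 times of 4 in Flox and 6 in GR iKO under every alternative except scaling to spike-in transcripts, which gave 9 and 1. That scaling called 25258 probes in Flox, where 0.9% of calls were higher against 46.2%, and 36 and 9 other pathway genes in Flox and GR iKO, and in GR iKO 6.1% of calls were higher against 49.2%. In Flox it turned Cd14 (-2.19), Tlr3 (-2.19 for both probes), Tlr4 (-1.84), Tlr7 (-1.35), Tlr9 (-2.15), Tlr2 (-1.33), Myd88 (-1.22), Aoah (-0.93), Ly86 (-1.05), Pik3ap1 (-1.36), Irf5 (-1.34), Irak3 (-1.63), Tnfaip3 (-2.13), Irf7 (-1.79), Lyn (-2.06), Cd36 (-1.2) and Tlr6 (-2.09). In GR iKO it turned Tlr3 (-0.74 and -0.5), Tlr4 (-0.01), Tlr9 (-0.63) and Ly96 (-0.69). Between genotypes it turned Tlr4 (-0.1) and Ly96 (-0.16) without DSS, and Tlr9 (1.19) and Nr3c1 (0.38) on DSS. In the interaction it called 7 members, 8650 probes and 22 other pathway genes. This scaling moves all probes of an array by 1 constant.

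Between genotypes on DSS, where 6 probes, 0 members and 0 other pathway genes were called, the probe count was 527 with normexp and quantile normalization, 19 with quantile normalization alone, 20 in the deposited table, 0 with spike-in scaling, 10 with no filter, 14 with probes above background on all 14 arrays, 3903 with 1 shared spread, 0 with the arrays of both groups only, 4455 with a quality weight for each array, and 185 with eBayes trend and robust. Of calls, 83.3% were higher, against 48.7% with the shared spread and 46.4% with quality weights. Members called were 1 with normexp, 2 with the shared spread, 4 with quality weights and 1 with trend and robust, and other pathway genes 1, 12, 7 and 1. In the interaction, 51 probes were called with normexp, 3 each with quantile normalization, the deposited table, the filter on all 14 arrays and trend and robust, 33 with the shared spread and 2956 with quality weights, which also called 2 members and 4 other pathway genes. Without DSS the 7 probes became 4 with normexp, 3 with spike-in scaling, 4 with the filter on all 14 arrays, 1 with the shared spread and 3 with the arrays of both groups only. The cause was not tested.

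Nr3c1 without DSS lost its call with spike-in scaling (-0.99, adjusted p = 0.164), the shared spread (-0.8, 0.0968), the arrays of both groups only (-0.8, 0.293) and the slide as a block (-0.8, 0.152), and on DSS gained one with the shared spread (-0.83, 0.00718) and quality weights (-0.91, 0.0079). Ly96 turned to -0.04 without DSS with normexp, and with quality weights Tlr9 turned to -0.07 in Flox and 0.14 between genotypes on DSS.

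Leaving out 1 array at a time gave 9190 to 14801 probes and 8 to 18 other pathway genes in Flox, lowest without Flox DSS replicate 1 (9190) and replicate 2 (8). Between genotypes on DSS it gave 0 to 826 probes, 0 to 2 members and 0 to 5 other pathway genes, and in the interaction 0 to 49 probes and 0 to 1 member, highest for members without GR iKO DSS replicate 3. Nr3c1 ranged from -0.86 to -0.74 without DSS and from -0.93 to -0.74 on DSS, losing its call without DSS when Flox control replicate 3 was left out (adjusted p = 0.059) and gaining one on DSS without Flox DSS replicate 4 (0.0456). Differences near 0 turned for Tlr9 (-0.07 to 0.35) and Ly96 (-0.11 to 0.04) in Flox, Ly96 (-0.06 to 0.09) and Tlr1 (-0.12 to 0.02) without DSS, Tlr9 on DSS (-0.21 to 0.21), and Tlr3 (-0.09 to 0.16) and Tlr9 (-0.06 to 0.36) in the interaction.

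The series' design speaks of pairs of mice but not whether replicate numbers mark them, so the numbers were not taken as pairing. Deviations of arrays with the same number correlated at -0.08 to 0.31, which cannot exclude pairing. With the replicate number as a block, 14263 probes were called in Flox and 11758 in GR iKO, 0 probes between genotypes on DSS (as with the slide as a block), and Nr3c1 without DSS was -0.8 (adjusted p = 0.169). Of all comparisons of a member's value with its main value, 1227 kept direction and side of the threshold, and 31 turned. Among those that did not turn, 25 gained a call and 7 lost it. Of those that turned, 9 had a call in the main fit, the alternative or both. Dim probes such as Tlr3 and Tlr7 have low signal over background, which limits their precision.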

Other observations

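Probes printed many times show how much of the spread lies within an array. The log2 spots of Myd88 (8 to 10 usable spots) had an SD of 0.04 to 0.09 on any array, and those of Tlr4 (9 or 10 usable spots) of 0.03 to 0.11. Between arrays the SD was 0.06 in Flox controls and 0.35 in Flox DSS for Myd88, and 0.14 and 0.37 for Tlr4. Tlr8, the only other receptor tested beside Tlr6, was not well above background on any GR iKO control array, and its DSS difference was 1.60 ± 1.09 in Flox (adjusted p = 0.249).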
